A study of Mus musculus with 2 samples.

Results

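Arg1 and Mmp12 tumour macrophages were the cells of a macrophage gate in which transcripts of Arg1, Mmp12, Ppbp and Mmp13 outnumbered those of monocyte markers and were no fewer than those of tissue-resident macrophage markers. They were sought among dissociated cells of subcutaneous Lewis lung carcinoma tumours, grown in mice from a mouse lung cancer line (LLC). One library came from mice given an anti-PD-1 antibody, which blocks an inhibitory receptor of T cells, with cells taken 7 days after treatment. The other came from mice given an IgG2a isotype control antibody; the series text calls these cells untreated, and no time is given for them. The number, strain and age of the mice are not given in the sources used here. Each group is 1 library, so treatment, tumour and preparation cannot be told apart, no test was made, and every interval (95%) covers counting error only.

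A barcode entered the analysis with at least 300 genes, at most 20% mitochondrial transcripts and less than 500 CPM over the tumour markers Hmga2, Igf2bp1, Igf2bp2 and Wnt7b. A transcript here is a unique molecular identifier (UMI), and CPM is UMIs per 1000000 UMIs of the cells summed. The macrophage gate asked for at least 2 UMIs over C1qa, C1qb, C1qc, Csf1r and Cd68. A member then had at least 2 UMIs over Arg1, Mmp12, Ppbp and Mmp13, no fewer than over Lyve1, Folr2, Stab1 and Siglec1, and more than over Chil3 and Ccr2. This gave 252 members of 9422 kept barcodes in the anti-PD-1 library and 389 of 8395 in the control library, 641 of 17817 in all. Because these genes chose the members, their values are descriptions. Members with a marker sum of exactly 2 numbered 30 in anti-PD-1 and 74 in control, and 64 and 126 further barcodes of the gate missed the rule with a sum of 1.

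Macrophages take up and clear debris and shape inflammation, and in tumours many arise from blood monocytes. Arg1 encodes arginase 1, which splits arginine to ornithine and urea and competes for that substrate with the nitric oxide synthase Nos2. Mmp12 and Mmp13 encode secreted proteases of the extracellular matrix, macrophage elastase and collagenase 3. Ppbp encodes a CXC chemokine best known from platelet granules, and its neighbour Pf4 encodes platelet factor 4, another chemokine of these granules.

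The 4 marker genes lie at 3 places of the mouse genome (GRCm38, GENCODE vM21). Arg1 is on chromosome 10 (chr10:24915221-24927484, minus strand). Ppbp (chr5:90768518-90770063) stands in a row of 7 protein-coding CXC chemokine genes that spans 147 kb. Mmp13 (chr9:7272514-7283331) and Mmp12 (chr9:7344381-7369499) stand in a row of 9 metalloproteinase genes that spans 427 kb; Ppbp, Mmp13 and Mmp12 are on the plus strand. The 250 bases before the start of 6 transcripts in these rows are shown from RefSeq (GRCm38.p6), because Ppbp and Pf4 lie side by side and went together within members, and because Cxcl3, Mmp8, Mmp12 and Mmp13 were high in members. Capitals mark TATAAA (the TATA box), TGANTCA (the AP-1 site), the NF-kB site (3 G, 5 bases of any kind and 2 C), TTGCNNCAA (a C/EBP site) and ACGTG (the core bound by hypoxia-inducible factors), searched on both strands.
Ppbp (chr5:90768268-90768517): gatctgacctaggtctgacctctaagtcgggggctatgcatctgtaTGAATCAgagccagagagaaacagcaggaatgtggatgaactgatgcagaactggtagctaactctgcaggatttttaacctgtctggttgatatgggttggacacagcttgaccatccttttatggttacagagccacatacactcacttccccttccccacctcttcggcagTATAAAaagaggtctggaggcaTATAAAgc
Pf4 (chr5:90772185-90772434): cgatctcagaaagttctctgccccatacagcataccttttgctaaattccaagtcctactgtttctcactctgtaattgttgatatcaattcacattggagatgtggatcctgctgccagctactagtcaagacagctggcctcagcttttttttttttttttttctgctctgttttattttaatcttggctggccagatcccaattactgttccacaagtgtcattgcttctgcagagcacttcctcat
Cxcl3 (chr5:90785851-90786100): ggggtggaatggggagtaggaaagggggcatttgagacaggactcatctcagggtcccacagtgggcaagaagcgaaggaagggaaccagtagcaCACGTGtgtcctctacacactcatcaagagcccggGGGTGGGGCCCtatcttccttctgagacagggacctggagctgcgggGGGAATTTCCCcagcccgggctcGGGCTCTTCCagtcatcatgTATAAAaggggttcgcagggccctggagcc
Mmp13 (chr9:7272264-7272513): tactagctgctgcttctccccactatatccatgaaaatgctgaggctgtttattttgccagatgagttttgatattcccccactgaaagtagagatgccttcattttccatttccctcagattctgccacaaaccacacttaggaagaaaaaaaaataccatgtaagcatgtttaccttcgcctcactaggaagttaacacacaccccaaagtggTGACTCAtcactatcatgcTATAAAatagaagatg
Mmp12, second start (chr9:7347124-7347373): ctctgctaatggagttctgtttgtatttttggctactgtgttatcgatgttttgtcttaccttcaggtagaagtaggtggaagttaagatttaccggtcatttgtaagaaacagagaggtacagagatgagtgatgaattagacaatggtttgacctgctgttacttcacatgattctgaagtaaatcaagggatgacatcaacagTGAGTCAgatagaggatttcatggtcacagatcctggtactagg
Mmp8 (chr9:7558179-7558428): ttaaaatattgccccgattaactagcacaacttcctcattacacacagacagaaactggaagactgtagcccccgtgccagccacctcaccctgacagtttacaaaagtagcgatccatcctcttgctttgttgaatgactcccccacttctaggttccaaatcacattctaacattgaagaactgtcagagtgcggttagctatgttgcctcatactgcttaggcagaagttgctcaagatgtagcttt
The Ppbp window held TATAAA at 2 places and 1 AP-1 match, the Mmp13 window 1 of each, and the Pf4 and Mmp8 windows no match. The Cxcl3 window held a TATA box, the hypoxia core on both strands of 1 palindrome, and NF-kB matches on both strands, some of which overlap. RefSeq lists a pair of starts for Mmp12; the window of the second lies in an intron of the longer transcript and held 1 AP-1 match, while that of the first, not shown, held 1 NF-kB match and no AP-1 match. AP-1 letters match on both strands at once. No C/EBP match was found in the windows shown. Among 32841 such windows, 12.4% held TATAAA, 6.75% the AP-1 letters, 45.8% the NF-kB letters, 1.74% the C/EBP letters and 16.6% ACGTG. A match is a run of letters and not a measured site. Arg1 and Cxcl5 are named without a sequence.

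The libraries held 115407230 UMIs in 9423 anti-PD-1 barcodes and 113268618 UMIs in 8441 control barcodes. A median member had 2945.5 UMIs and 1652.5 genes in anti-PD-1, against 3032 UMIs and 1740 genes in control. The libraries shared 107 barcode sequences, of which 2 were those of members in both. Scrublet, a doublet caller, marked 0 anti-PD-1 and 29 control members, with automatic thresholds that marked 1 of 9422 and 1144 of 8395 kept barcodes, so no barcode was removed on its call.

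Macrophage genes that the rule did not use were also looked up in members, which describes the label and is no test of it. Of the macrophage identity list, 12 such genes had at least 100 UMIs over the members of both libraries. Adgre1, which encodes the macrophage marker F4/80, stood at 269.6 CPM in anti-PD-1 and 178 CPM in control members, and Mertk, a receptor for dying cells, at 119.7 and 81.2 CPM. Among gates of other cell types in the anti-PD-1 library, Adgre1 was highest in the neutrophil gate, at 0.56 times its level in members. Of the macrophage gate genes, which selection fixed, Csf1r, the receptor for the macrophage growth factor CSF1, stood at 648 and 536 CPM. A minority of members carried little of the gate and much fibroblast RNA. In the 38 anti-PD-1 and 68 control members below 1000 CPM over the gate genes (15.1% and 17.5% of members, 40.3% and 41.3% of their UMIs), the median over 8 summed fibroblast markers was 26084 and 6924 CPM. In the 214 anti-PD-1 and 321 control members at or above that limit, called macrophage-rich below, it was 320.0 and 422 CPM. The limit was set after the data had been seen. Comparisons of members with other gates and among themselves are given for macrophage-rich barcodes, and those between the libraries for all members unless the text says otherwise.

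**Figure D1:**
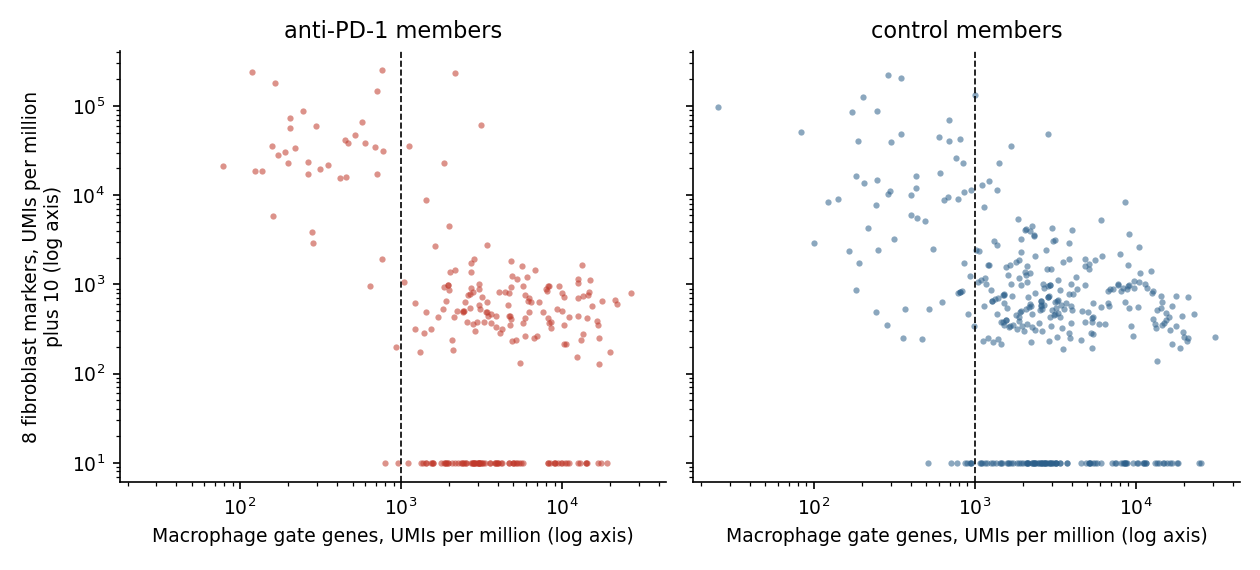
Each point is 1 member; the horizontal axis gives its CPM over the 5 macrophage gate genes and the vertical axis its CPM over 8 fibroblast markers plus 10, so that members at 0 show, both on log axes, with anti-PD-1 at the left and control at the right. The dashed line marks 1000 CPM; left of it the median of the fibroblast markers was 26084 CPM in anti-PD-1 and 6924 CPM in control.

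Markers of other cells were also counted in macrophage-rich members. T cell markers (9 genes) summed to 71.7 CPM in anti-PD-1 and 162 CPM in control, NK cell markers (8 genes) to 37.2 and 95.7 CPM, and LLC markers (8 genes) to 181 and 199 CPM. Neutrophil markers (8 genes) summed to 579 CPM in anti-PD-1 and 416 CPM in control. Fibroblast markers summed to 2664 and 2059 CPM, with 49.2% of the anti-PD-1 sum in 1 barcode. Red cell markers, 7 of 8 of them in the files, summed to 114 CPM in anti-PD-1 and 1359 CPM in control, and mast cell markers (6 genes) to 10.6 and 251 CPM, of which 1 control barcode held 94.8%. The part of these cells in the results was not tested.

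The share of members was smaller in anti-PD-1. The kept barcodes include 6522 in anti-PD-1 and 5343 in control that were at or above the tumour limit. Of the kept anti-PD-1 barcodes, 2.67% were members (2.36 to 3.02) and of those of the control library 4.63% (4.19 to 5.11), a difference of -1.96 percentage points (-2.53 to -1.40). Within the macrophage gate they were 12.7% in anti-PD-1 (11.3 to 14.2) and 20.7% in control (18.9 to 22.6). The resident-type gate, where Lyve1, Folr2, Stab1 and Siglec1 led, held 39.8% of the anti-PD-1 and 26.2% of the control macrophage gate. The monocyte gate, where Chil3 and Ccr2 led, held 23.7% (21.9 to 25.6) and 19.8% (18.0 to 21.6). The member share was thus lower in anti-PD-1 and the share of the resident-type gate higher, both by more than counting error.

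The mix of marker genes within members differed between the libraries. At least 1 Arg1 UMI was found in 47.2% of anti-PD-1 and 68.9% of control members, and at least 1 Ppbp UMI in 57.5% and 30.8%. Mmp12 was found in 54.4% and 61.2%, and Mmp13 in 46.0% and 48.3%. With each member thinned to 2000 UMIs (195 anti-PD-1 and 294 control members were deep enough) the shares were 36.9% and 60.9% for Arg1, 49.2% and 26.2% for Ppbp, 45.1% and 49.7% for Mmp12, and 40.5% and 37.8% for Mmp13. In lymphoid barcodes, which should lack these genes (84 and 89 barcodes, median 1396 and 1195 UMIs), Arg1 was found in 4.76% and 8.99%, and Mmp13 in 2.38% and 3.37%. Ppbp and Mmp12 were found there in 0 of 84 anti-PD-1 barcodes, which allows a share of up to 3.57%, and in 3.37% and 1.12% of control barcodes.

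Summed levels ran the same way for Arg1 and Ppbp, but not for Mmp12, which was found in fewer anti-PD-1 members and had the higher sum there, nor for Mmp13 once members were thinned. Arg1 stood at 466 CPM in anti-PD-1 members (429 to 505) and 779 CPM in control members (740.3 to 819). Ppbp stood at 2431 CPM in anti-PD-1 and 982 CPM in control, Mmp12 at 1590.3 and 1207 CPM, and Mmp13 at 603 and 693 CPM. Arg1 was thus lower and Ppbp higher in anti-PD-1, and of the 4 only Ppbp was past 2-fold. One anti-PD-1 barcode held 12.1% of the Mmp12 UMIs and 1 control barcode 11.6% of the Ppbp UMIs. In the resident-type gate, where the 4 genes had to be fewer, Arg1 was at 76.8 CPM in anti-PD-1 and 106 CPM in control, and Ppbp at 81.0 and 48.4 CPM.

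**Figure D2:**
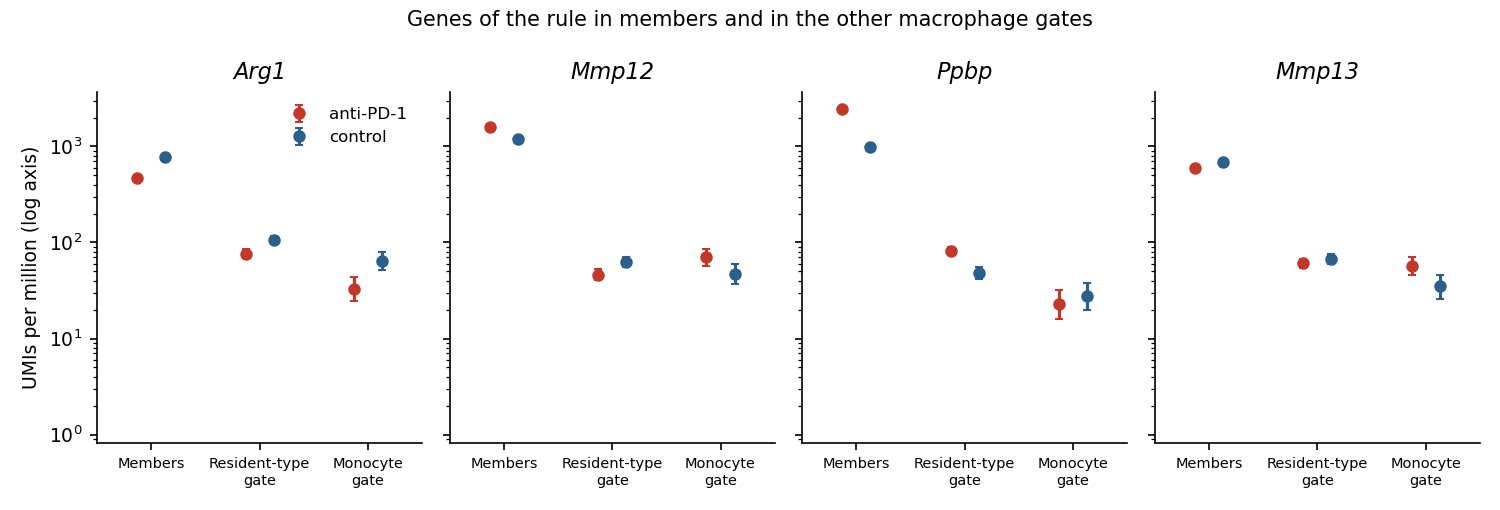
Each panel is 1 gene of the rule, with its level in CPM on a log axis, summed over the members, the resident-type gate and the monocyte gate, anti-PD-1 in red and control in blue; bars are 95% Poisson intervals. Arg1 lies lower and Ppbp higher in anti-PD-1 than in control members; the distance between members and the other gates was set by the rule.

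All 4 markers were found in few members. All were found together in 26 anti-PD-1 members (10.3%) and 16 control members (4.11%), and a single one in 84 (33.3%) and 109 (28.0%). The combination of Arg1, Mmp12 and Mmp13 without Ppbp was found in 10 anti-PD-1 and 69 control members, and Ppbp alone in 27 and 11. Arg1 with Ppbp and neither protease was found in 30 and 35. Members were thus a mixture of marker states, with more states holding Ppbp in anti-PD-1.

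Other platelet genes were near 0 where Ppbp was found. Besides Ppbp and Pf4, the platelet and megakaryocyte list holds 11 genes, among them Itga2b and Gp9, which encode parts of platelet adhesion receptors. In macrophage-rich members these summed to 14 UMIs in anti-PD-1 and 18 UMIs in control, against 2938 and 1836 UMIs of Ppbp. Any of them was found in 9 of 127 anti-PD-1 and 8 of 100 control members that had Ppbp. Among all macrophage-rich members, with or without Ppbp, any was found in 12 of 214 in anti-PD-1 and 18 of 321 in control. They were thus found somewhat more often where Ppbp was found. Over all members they summed to 20 and 118 UMIs, with 85 of the control sum in 1 barcode. Pf4 was found more widely, at 2286 and 2903 UMIs in macrophage-rich members.

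Several neighbours of the marker genes that the rule did not use were also high in members. A gene was counted as higher or lower than in another gate where both libraries were past 2-fold the same way, among genes with at least 50 UMIs in each library and without the genes of the gates. Of 9129 genes, 162 were higher in members than in the resident-type gate (1.77%) and 148 lower (1.62%). Over all barcodes, of 9869 genes, 132 were higher (1.34%) and 136 lower (1.38%). Cxcl3, a neutrophil-attracting chemokine, stood at 1076.5 CPM in members and 42.9 CPM in the resident-type gate of the anti-PD-1 library, a log2 ratio of 4.65 (4.42 to 4.89). In control it stood at 783 and 40.5 CPM, a log2 ratio of 4.27. Cxcl2, a related chemokine, had log2 ratios of 2.67 in anti-PD-1 and 2.48 in control. Cxcl5, next to Ppbp, had 4.15 and 3.94, but was found in only 18 anti-PD-1 and 12 control members. Pf4, on the other side of Ppbp, stood at 3034 CPM in members and 2071 CPM in the resident-type gate of anti-PD-1, and 2527 and 1034 CPM in control. Cxcl1, of the same row, had log2 ratios of 1.56 in anti-PD-1 (1.10 to 2.01) and 0.30 in control (-0.16 to 0.75). Cxcl15 had 0 UMIs in members of either library.

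The metalloproteinase row was uneven too. Mmp8, neutrophil collagenase, stood at 316 CPM in members and 9.37 CPM in the resident-type gate of anti-PD-1, and 255 and 12.1 CPM in control, log2 ratios of 5.08 and 4.40. Mmp3, stromelysin 1, was not higher in members, at 135 and 133 CPM in anti-PD-1 and 75.7 and 181 CPM in control. Mmp27 stood at 82.3 and 60.9 CPM in anti-PD-1 and 66.1 and 25.8 CPM in control. Neighbours of the same row thus differed in whether they were higher in members.

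**Figure D3:**
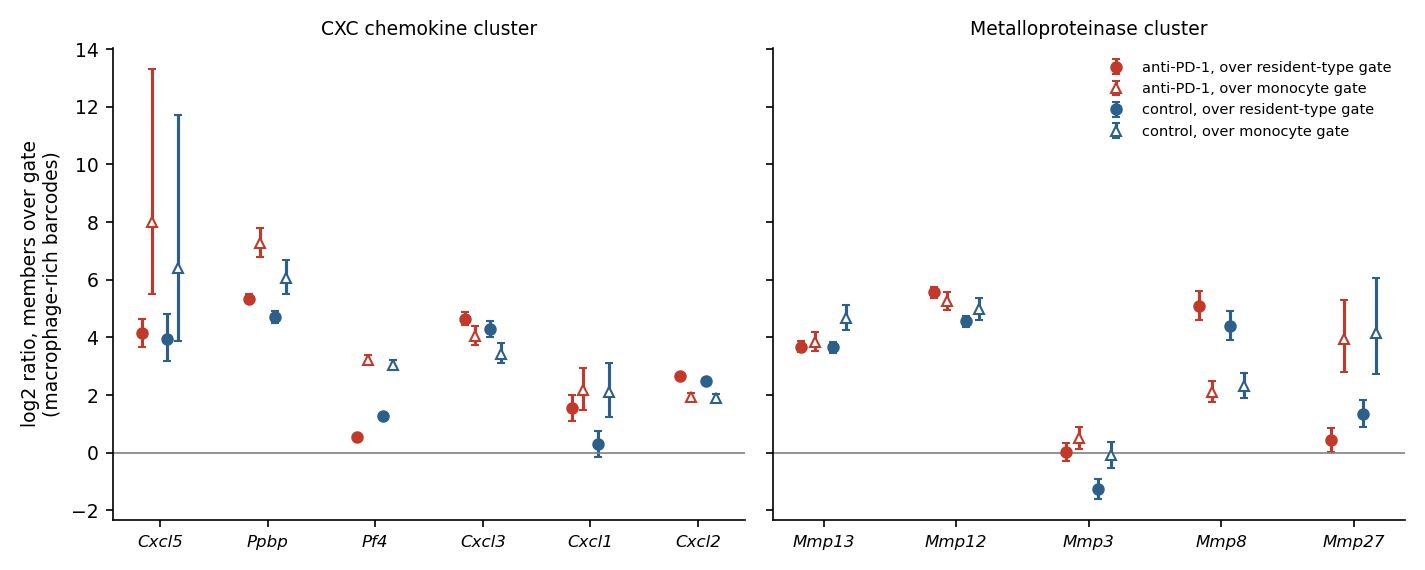
Each point is the log2 ratio of a gene in macrophage-rich members over the resident-type gate (circles) or the monocyte gate (triangles), anti-PD-1 in red and control in blue, with genes in chromosomal order and 95% intervals. Cxcl3, Cxcl2 and Mmp8 lie above 0 in both libraries against both gates, while Mmp3 lies near or below 0 against the resident-type gate; Ppbp, Mmp12 and Mmp13 were used by the rule and are high by construction.

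Against the resident-type gate, members carried more RNA of inflammatory, hypoxia and arginine genes. Of 15 measured inflammatory cytokine genes, 7 were higher in both libraries and 0 lower, with list medians of 1.17 (log2) in anti-PD-1 and 1.23 in control, where all genes had medians of -0.07 and -0.13. Inhba, the subunit of activin A, had log2 ratios of 5.18 in anti-PD-1 and 4.52 in control, and Il1b, interleukin 1 beta, 2.20 and 2.12. Ptgs2, the inducible prostaglandin synthase, had 2.57 and 2.27, and Thbs1, the matrix protein thrombospondin 1, 3.21 and 2.83. The inflammatory cytokine list was not particular to members. It summed to 13933 CPM in anti-PD-1 and 14149 CPM in control members, and to 15342 and 14646 CPM in the monocyte gate. In the resident-type gate it summed to 2662.5 and 3177 CPM.

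Of 22 hypoxia genes, 10 were higher and 0 lower, with medians of 1.11 in anti-PD-1 and 0.81 in control. Vegfa, the endothelial growth factor, stood at 439 CPM in members and 44.0 CPM in the resident-type gate of anti-PD-1, and 639 and 121 CPM in control. Hilpda, which holds back the breakdown of lipid droplets, had log2 ratios of 3.16 and 2.64, and Egln3, an oxygen-sensing hydroxylase, 3.22 and 2.48. Of 11 arginine and nitric oxide genes measured without Arg1, 4 were higher and 0 lower. Arg2, the mitochondrial arginase, had 3.70 and 2.45, and Nos2 3.03 and 1.95.

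Genes of tissue-resident macrophages were lower in members. With the gate genes left out, 5 of 10 measured genes of the resident-type list were lower and 0 higher, with medians of -1.80 in anti-PD-1 and -1.18 in control; the gates were themselves chosen on genes of this list. Cbr2, carbonyl reductase 2, stood at 109 CPM in members and 612 CPM in the resident-type gate of anti-PD-1, and 33.1 and 188 CPM in control. Cd163, the receptor for hemoglobin bound to haptoglobin, had log2 ratios of -1.62 and -2.44. Retnla, a secreted protein of alternatively activated macrophages, had 0 UMIs in members and 355 in the resident-type gate of anti-PD-1. In control it stood at 11.3 and 67.2 CPM. Mrc1, the mannose receptor, was not past 2-fold, at log2 ratios of -0.71 and -0.13.

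Against the monocyte gate, members had less RNA of recruited monocyte genes and more of chemokine, matrix and lipid genes. Of 6891 genes, 121 were higher in members in both libraries (1.76%) and 98 lower (1.42%). Over all barcodes, of 8236 genes, 144 were higher (1.75%) and 190 lower (2.31%). Of 9 measured inflammatory monocyte genes outside the gates, 6 were lower and 0 higher. Hp, haptoglobin, stood at 39.8 CPM in members and 371 CPM in the monocyte gate of anti-PD-1, and 45.3 and 376 CPM in control. Ace, the angiotensin-converting enzyme, had log2 ratios of -5.84 and -3.78. Of 7 MHC class II genes 5 were lower and 0 higher; Cd74, the invariant chain, stood at 6330.1 and 13500 CPM in anti-PD-1 and 6588 and 18310 CPM in control.

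The genes higher than in the monocyte gate had several roles. Of 18 chemokine genes 10 were higher and 1 lower, of 21 lipid-associated macrophage genes 10 and 0, and of 16 metalloproteinase and matrix genes 8 and 0. Gpnmb, a membrane glycoprotein of lipid-laden macrophages, stood at 796 CPM in members and 163 CPM in the monocyte gate of anti-PD-1, and 636 and 105 CPM in control. Cd36, a scavenger receptor for oxidised lipid, had log2 ratios of 2.89 in anti-PD-1 and 2.65 in control. Slc40a1, the iron exporter ferroportin, had 4.16 and 4.53, and Gdf15, a stress-induced growth factor, 5.40 and 5.28. The lipid-associated list was not particular to members. It summed to 31151 CPM in anti-PD-1 and 23805 CPM in control members, and to 35482 and 23920 CPM in the resident-type gate. The matrix list, with Mmp12 and Mmp13, summed to 36985 and 28388 CPM in members, and to 34520 and 21812 CPM in that gate. The chemokine list, with Ppbp, summed to 23229 and 16215 CPM in members, and to 14906 and 8543.8 CPM there.

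Members also differed among themselves by which marker led. Arg1 UMIs outnumbered those of Mmp12 in 71 anti-PD-1 and 160 control members, Mmp12 led in 114 and 171, and 67 and 58 were ties. Of 2815 genes, 5 were higher in Arg1-leading than in Mmp12-leading members in both libraries (0.178%) and 20 lower (0.710%). Over all barcodes, of 5081 genes, 12 were higher (0.236%) and 10 lower (0.197%). Ccl24, an eosinophil-attracting chemokine, stood at 244 CPM in Arg1-leading and 71.9 CPM in Mmp12-leading members of anti-PD-1, and 115 and 25.8 CPM in control. Cxcl5 had log2 ratios of 2.75 in anti-PD-1 and 2.80 in control. On the Mmp12 side, Itgax, the CD11c integrin, had log2 ratios of -3.64 and -1.65. Lpl, lipoprotein lipase, had -2.17 and -1.34, Gpnmb -2.42 and -1.19, and Mgl2, a galactose-binding lectin of macrophages and dendritic cells, -3.61 and -1.33. Of 21 lipid-associated macrophage genes, 4 were lower in Arg1-leading members and 0 higher. Dendritic cell markers (8 genes) summed to 18.7 CPM in Arg1-leading and 211 CPM in Mmp12-leading members of anti-PD-1, and 43.2 and 110.4 CPM in control; their part was not tested.

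A split by Ppbp, added after the data had been seen, separated members by antigen presentation genes. Members with at least 2 Ppbp UMIs (118 in anti-PD-1, 81 in control) were set against those with 0 (107 and 269), and 27 and 39 with a single UMI were left out. Members without Ppbp had to carry the other markers to meet the rule. Of 3194 genes in macrophage-rich members, 7 were higher in Ppbp-bearing members in both libraries (0.219%) and 20 lower (0.626%). Over all barcodes, of 5330 genes, 40 were higher (0.750%) and 112 lower (2.10%). Of 6 measured MHC class II genes 5 were lower and 0 higher. H2-Ab1, a chain of the class II molecule, stood at 381 CPM in Ppbp-bearing and 3864 CPM in Ppbp-free members of anti-PD-1, a log2 ratio of -3.34 (-3.60 to -3.10). In control it stood at 680.1 and 2546 CPM, a log2 ratio of -1.90 (-2.12 to -1.69). Cd74 had -2.55 and -1.40, H2-Eb1 -3.64 and -2.31, and Ciita, the master regulator of these genes, -2.32 and -2.60. H2-DMa, which helps load peptides, was past 2-fold in anti-PD-1 alone, at -1.08 and -0.36. Dendritic cell markers summed to 23.1 CPM in Ppbp-bearing and 204 CPM in Ppbp-free members of anti-PD-1, with 55.7% of the second sum in 1 barcode, and to 48.1 and 85.9 CPM in control; their part was not tested. Of 24 type I interferon genes 4 were lower and 0 higher; Ifit3, an antiviral protein, had -1.77 and -1.43.

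Few genes went up with Ppbp. Pf4 stood at 4366 CPM in Ppbp-bearing and 1558 CPM in Ppbp-free members of anti-PD-1, and 4627 and 1798 CPM in control. Fcrls, an Fc receptor-like scavenger protein, stood at 291 and 53.5 CPM in anti-PD-1 and 124 and 21.1 CPM in control. Cxcl5 stood at 375 CPM in Ppbp-bearing members of anti-PD-1 and at 0 UMIs in Ppbp-free ones, a log2 ratio of at least 5.23 with 3 counts for the 0, and at 182 and 31.7 CPM in control. Cxcl3 and Thbs1 were close to even, with log2 ratios of 0.15 and -0.12 for Cxcl3, and -0.02 and -0.26 for Thbs1.

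**Figure D4:**
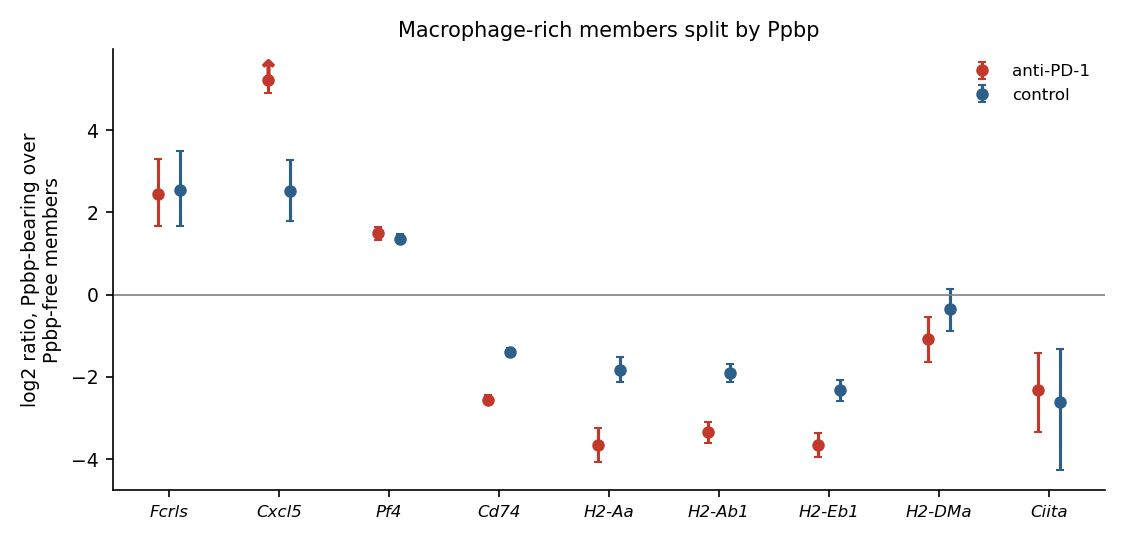
Log2 ratios of Ppbp-bearing over Ppbp-free members among macrophage-rich members, anti-PD-1 in red and control in blue, with 95% intervals; the arrow marks a lower bound, where Ppbp-free members had 0 UMIs. Fcrls, Cxcl5 and Pf4 lie above 0 and the MHC class II genes below it in both libraries, with H2-DMa nearest to 0.

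Between the libraries, the interferon gamma list had the lowest median in members of the lists that are not markers of another cell type. Of 7023 genes with at least 100 UMIs over the members of both libraries, 36 were over 2-fold higher in anti-PD-1 (0.513%) and 123 over 2-fold lower (1.75%), with a median log2 ratio of -0.02. The higher genes include 2 of the rule, Ppbp and Siglec1, in all members and in macrophage-rich ones. In macrophage-rich members 25 of 4585 were higher (0.545%) and 52 lower (1.13%). Of 26 measured interferon gamma response genes, 11 fell in anti-PD-1 and 0 rose, with a median of -0.91; in macrophage-rich members 12 of 25 fell, with a median of -0.87. Cxcl9, which draws T cells through CXCR3, stood at 14.3 CPM in anti-PD-1 (18 UMIs in 7 members), against 141 CPM in control (277 UMIs in 87 members), a log2 ratio of -3.31 (-4.09 to -2.62). The guanylate-binding proteins Gbp8 and Gbp4 stood at 24.6 and 34.9 CPM in anti-PD-1, against 103 and 130.2 CPM in control. Iigp1, an immunity-related GTPase that attacks parasite vacuoles, stood at 51.5 CPM in anti-PD-1 and 207 CPM in control. Cd274, the gene of PD-L1, to which PD-1 binds, stood at 214 and 380.0 CPM, a log2 ratio of -0.83 (-1.03 to -0.63) that did not pass 2-fold. Fcgr1, an antibody receptor of the same list, had 0.23. Markers of T cells and NK cells, the main makers of interferon gamma, summed over all members to 46.0 and 35.7 CPM in anti-PD-1, against 138 and 186 CPM in control. One control barcode held 52.1% of the NK sum, and Prf1 gave 258 of its 365 UMIs. In macrophage-rich members the sums were 71.7 and 37.2 CPM in anti-PD-1, against 162 and 95.7 CPM in control. The part of these cells was not tested.

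The list was lower in each kind of member. Among macrophage-rich members it had medians of -1.26 in Ppbp-bearing members (10 of 18 genes lower), -0.76 in Ppbp-free ones (8 of 26), -1.31 in Arg1-leading ones (14 of 22) and -0.89 in Mmp12-leading ones (10 of 25). Over all genes with at least 50 UMIs in the same split, 2.28%, 4.26%, 4.32% and 2.41% were lower. In the same order 1.08%, 1.12%, 1.52% and 1.35% of all genes were higher, and 0, 1, 0 and 1 genes of the list. Gbp8 had log2 ratios of -2.05, -1.99, -2.56 and -2.26 in these members, in the same order. The first rested on 11 UMIs in anti-PD-1 and 34 in control, short of 50 UMIs. In the macrophage-rich barcodes of the other gates, the list had a median of -1.12 in the resident-type gate (16 of 27 lower, against 2.41% of all genes) and -0.29 in the monocyte gate (5 of 25, against 0.981%). In these gates 0.810% and 0.491% of all genes were higher, and 0 and 0 of the list.

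MHC class II genes did not follow in members as a whole. None of 7 passed 2-fold, with a median of -0.15 (-0.06 in macrophage-rich members), while in the macrophage-rich resident-type gate 7 of 7 were lower, with a median of -2.13. Arg1-leading and Mmp12-leading members differed. H2-Ab1 stood at 511 CPM in Arg1-leading members of anti-PD-1, against 1692.5 CPM in those of control, a log2 ratio of -1.73 (-2.03 to -1.44). In Mmp12-leading members it stood at 3312 CPM in anti-PD-1 and 1986 CPM in control, a log2 ratio of 0.74 (0.62 to 0.86). Dendritic cell markers went the same ways, with 18.7 CPM in Arg1-leading members of anti-PD-1, against 43.2 CPM in those of control. In Mmp12-leading members they summed to 211 CPM in anti-PD-1, with 41.5% in 1 barcode, and 110.4 CPM in control. H2-Ab1 stood 9.06 times higher in barcodes of the dendritic cell gate than in members, and the part of these cells was not tested. The class II list had medians of -1.73 in Arg1-leading (4 of 5 lower) and 0.60 in Mmp12-leading members (0 of 7 lower, 0 higher). With 1 library a group the difference between these splits was not tested. One anti-PD-1 barcode held 12.3% of the H2-Ab1 UMIs of members.

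Arginine, stress and hypoxia lists had medians below that of all genes. Over all genes, 1.75% were over 2-fold lower in anti-PD-1 members and 0.513% over 2-fold higher. Of 11 arginine and nitric oxide genes measured without Arg1, 1 fell, Nos2, with a list median of -0.42. Nos2 stood at 53.1 CPM in anti-PD-1 and 161 CPM in control, a log2 ratio of -1.60 (-2.01 to -1.22), while Arg2 had 0.07 and Odc1, the first enzyme of polyamine synthesis, -0.41. Of 14 amino acid stress genes 2 fell, with a median of -0.63; Mthfd2 and Shmt2, mitochondrial enzymes of one-carbon metabolism, had -1.24 and -1.06. Of 22 hypoxia genes 1 fell, with a median of -0.26; Vegfa stood at 296 CPM in anti-PD-1 and 457 CPM in control, and Slc2a1, a glucose transporter, at 741 and 747 CPM. None of 15 glycolysis genes passed 2-fold, with a median of -0.33; Pgam1 had -0.75 and Ldha -0.44. Inflammatory cytokine genes had 2 of 15 lower and a median of -0.08; Inhba stood at 69.0 CPM in anti-PD-1 and 185 CPM in control, and Il1b at 660.4 and 948 CPM. None of 23 proliferation genes passed 2-fold, with a median of -0.41. In macrophage-rich members, where 1.13% of all genes were lower, 2 of 7 arginine genes without Arg1 fell (Nos2 and Sms). So did 0 of 20 hypoxia, 1 of 9 amino acid stress and 1 of 14 inflammatory cytokine genes. The medians, in the same order, were -0.39, -0.27, -0.62 and -0.09. None of 14 glycolysis and 11 proliferation genes passed 2-fold there, with medians of -0.37 and -0.32. The macrophage-rich barcodes of the resident-type and monocyte gates leaned the same way. Their medians were -0.57 and -0.26 for hypoxia, -0.44 and -0.27 for glycolysis, and -0.46 and -0.26 for amino acid stress.

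Genes of resident and scavenging macrophages leaned the other way. Among all genes, 0.513% were over 2-fold higher in anti-PD-1 members and 1.75% over 2-fold lower. Without the genes of the rule, 2 of 9 measured resident-type genes rose (Cbr2 and Cd163) and 0 fell, with a median of 0.55; 1 anti-PD-1 barcode held 71.4% of the Cd163 UMIs, and without the highest barcode of each library its log2 ratio was 0.22, against 1.22 with them. Cbr2 had a log2 ratio of 1.59 (1.05 to 2.14). Mrc1 stood at 2545 CPM in anti-PD-1 and 1499.6 CPM in control, and Gas6, which bridges receptors to dying cells, at 97.5 and 53.6 CPM. Ccl8, a chemokine of the same list, had a log2 ratio of -0.89. The rule lets a member hold as many UMIs of Lyve1, Folr2, Stab1 and Siglec1 as of its markers. The median marker sum was 13 UMIs in anti-PD-1 and 8 UMIs in control, and the part of this was not tested. Of 19 scavenger and efferocytosis genes outside the rule, 1 rose (Cd163) and 0 fell, with a median of 0.18. None of 12 macrophage identity genes outside the gate passed 2-fold, with a median of 0.39; Adgre1 had 0.60 and Mertk 0.56. None of 28 lysosomal enzymes passed it either, with a median of 0.38; the cathepsins Ctsd, Ctsl and Ctsh had 0.58, 0.51 and -0.58. Type I interferon genes had 0 of 26 higher, 0 lower and a median of 0.14. Rsad2, an antiviral enzyme, had 0.67 and Ifit3 0.78. The macrophage-rich barcodes of the resident-type and monocyte gates leaned the same way. Their medians were 0.98 and 0.13 for the resident-type list, 0.55 and 0.18 for macrophage identity (both with gate genes), and 0.50 and 0.18 for lysosomal enzymes.

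**Figure D5:**
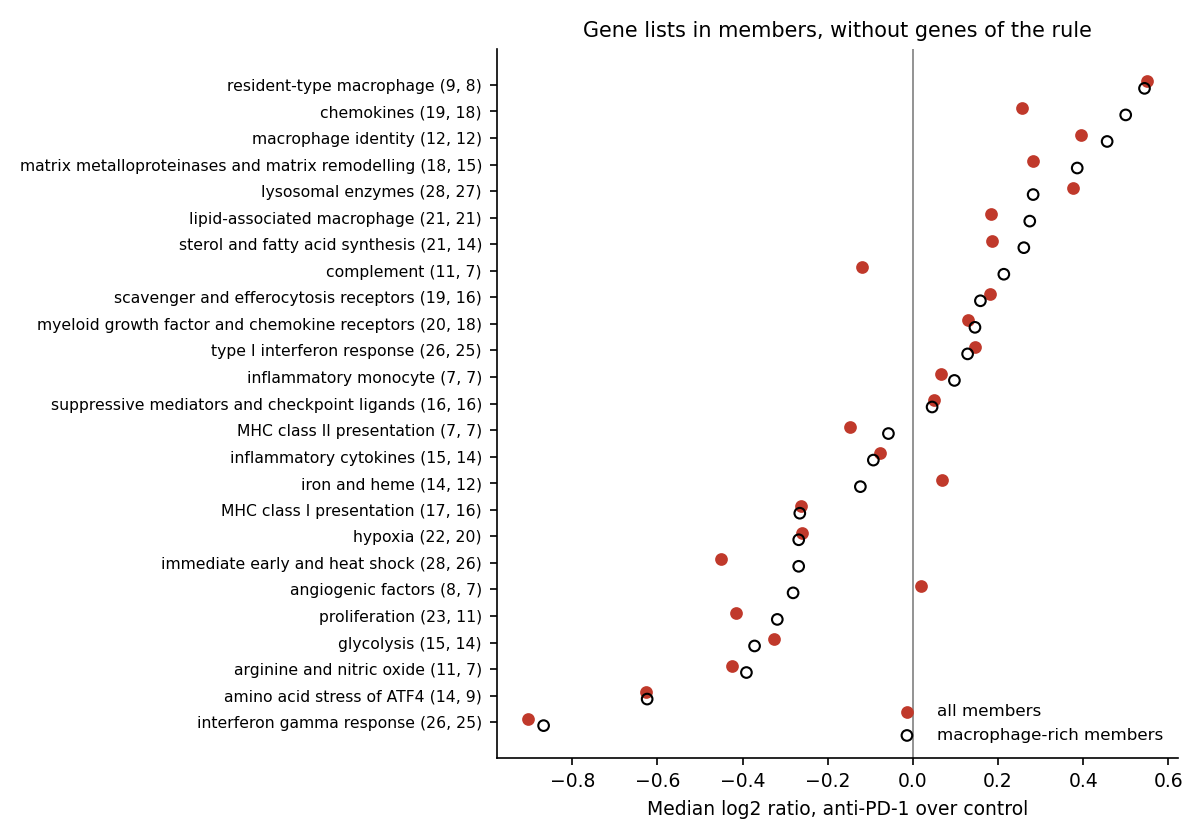
Median log2 ratio of anti-PD-1 over control for each gene list, over all members (filled) and macrophage-rich members (open), without the genes of the rule; brackets give the genes measured in each. The interferon gamma list lies lowest and the resident-type list highest in both.

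Chemokines were mixed. Of 19 measured without Ppbp, 1 rose (Ccl17) and 2 fell (Cxcl9 and Cxcl14) in anti-PD-1, with a median of 0.26. In macrophage-rich members 3 of 18 rose (Ccl17, Ccl24 and Cxcl5) and 1 fell (Cxcl9), with a median of 0.50. Ccl17, a ligand of CCR4, had 109 UMIs in anti-PD-1 and 4 in control, with 79.8% of the anti-PD-1 UMIs in 1 barcode, and stood 15.9 times higher in barcodes of the dendritic cell gate than in members. Ccl2, an attractant of monocytes, stood at 2075 CPM in anti-PD-1 and 1242 CPM in control. Cxcl3 had a log2 ratio of 0.40, Cxcl5 0.94 and Pf4 0.26, none of them past 2-fold; in macrophage-rich members Cxcl5 was, at 1.32. Of 18 metalloproteinase and matrix genes measured without Mmp12 and Mmp13, 1 rose (Mmp9) and 3 fell (Mmp2, Timp1 and Timp3). In macrophage-rich members 2 rose (Mmp9 and Timp2) and 0 fell. Spp1, osteopontin, stood at 1299 CPM in anti-PD-1 and 1269.7 CPM in control, where 1 control barcode held 34.3% of its UMIs, and at 1753 and 1004 CPM in macrophage-rich members.

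Among the single genes with the largest ratios, many lay in members poor in gate genes. The 12 highest and 12 lowest ratios were taken among genes that reached 20 CPM in either library. Genes of the rule, mitochondrial genes and those over 5 times higher in the gate of another cell type, such as Ccl17 and Prf1, were left out. Of the 12 highest, 6 had most of their UMIs in members below the macrophage-rich limit, and so had 10 of the 12 lowest. Of the others, Fcrls stood at 110.2 CPM in anti-PD-1 and 28.6 CPM in control, a log2 ratio of 1.95 (1.49 to 2.42), with 25.2% of its anti-PD-1 UMIs in 1 barcode and a log2 ratio of 1.75 without the highest barcode of each library. Ch25h, which makes 25-hydroxycholesterol, stood at 97.5 and 31.2 CPM, and Mgl2 at 233 and 83.3 CPM. Within Ppbp-bearing macrophage-rich members Fcrls stood at 291 CPM in anti-PD-1 and 124 CPM in control. Within Ppbp-free ones it stood at 53.5 and 21.1 CPM, on 16 UMIs in each library. Ch25h had log2 ratios of 2.28 in Ppbp-bearing members (39 UMIs in anti-PD-1, 6 in control) and 3.13 in Ppbp-free members, and Mgl2 -0.22 and 2.44. Cma1, a mast cell protease, was among the lowest, with 99.0% of its control UMIs in 1 barcode.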

How the data were processed

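Processed single-cell RNA matrices of 2 libraries, 1 a group, were used. The values are raw UMI counts per gene and barcode, deposited by the authors with barcodes already filtered. Per the file headers they came from Cell Ranger 9.0.1, while the submitters' processing notes name Cell Ranger 7.0.1 and mm10. Per the labels' protocols a fixed-RNA probe kit was used, though a 3' protocol is also described. With probes, levels of different genes may not be on the same scale. This limits the rule, the split by whether Arg1 or Mmp12 led, and the comparison of other platelet genes with Ppbp.

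Counts were summed over members with Python 3.11.15, NumPy 2.4.6, SciPy 1.17.1 and pandas 2.3.3. CPM has exact Poisson intervals, shares have exact Clopper-Pearson intervals, and log2 ratios have intervals from the conditional binomial. A count of 0 was set to 3 in ratios. A gene was called when over 2-fold, with at least 100 UMIs over both libraries, or 50 UMIs in each library within a library. Scrublet ran through Scanpy 1.11.5. The calculation was tested on simulated data. Members and gene lists were chosen with earlier results of these data known. Named genes were the rule's genes, the 12 highest and 12 lowest ratios among genes with at least 20 CPM in the higher library that were not over 5 times higher in the gate of another cell type, up to 4 of each list by size and 2 by level, and fixed genes such as Nos2 and Cd274; genes outside these were chosen after their values were seen. Of 574 list entries, 17 are not in the files.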

Additional observations from a re-analysis of the deposited data

Results flagged for a closer look

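Mmp9, which encodes gelatinase B, differed between gates under the same contrast, and the difference was not tested. Its log2 ratio of anti-PD-1 over control was 1.21 in members (126 CPM in anti-PD-1 and 54.7 CPM in control) and -1.39 in the resident-type gate. One barcode held 53.5% of the UMIs of anti-PD-1 members, and without the highest barcode of each library the log2 ratio in members was 0.54. Mmp9 stood 14.9 times higher in barcodes of the neutrophil gate than in members. Neutrophil markers (8 genes) summed to 377 CPM in anti-PD-1 and 304 CPM in control members.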

How the results depend on the processing

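No paired analysis was possible because each group is 1 library and the labels give no replicate numbers, and no library could be left out. The difference in the share of kept barcodes, -1.96 points, was -1.24 with a marker sum of at least 4 and -0.91 with a tumour limit of 100 CPM; within the macrophage gate, -7.97 points became -4.91 with a sum of at least 4 and -11.25 with barcodes thinned to 3000 UMIs. The 36 higher and 123 lower genes became 17 higher with the 100 CPM tumour limit, 21 higher and 37 lower when thinned, 55 higher with Arg1-leading and Mmp12-leading members weighted equally, 46 lower with a sum of at least 4, 53 lower without members over 3 times the median UMI count, and 52 lower in macrophage-rich members. They became 127 higher and 524 lower at 20 UMIs a gene, and 281 and 1010 with no gene filter. Against the resident-type gate, 132 higher and 136 lower genes over all barcodes became 82 and 54 when thinned, and 238 lower with a sum of at least 4. Against the monocyte gate, 144 higher and 190 lower became 57 and 53 when thinned, 90 lower with a sum of at least 4 and 98 lower in macrophage-rich barcodes. Arg1-leading over Mmp12-leading members had 12 higher and 10 lower genes over all barcodes, 5 and 20 in macrophage-rich ones, 5 and 5 when thinned, 20 lower by the mean of per-barcode CPM and 29 lower with a sum of at least 4. Ppbp-bearing over Ppbp-free members had 40 and 112, and 7 and 20 in macrophage-rich ones. Directions turned for the MHC class II median (0.70 with Arg1 and Mmp12 alone in the rule, 0.15 with the 100 CPM tumour limit), Lum (-0.56 with that limit) and Ptn (-0.87 with that limit, -0.55 in macrophage-rich members). Cd163 turned to -2.45 with Arg1 and Mmp12 alone, -0.16 with that limit, -0.73 without members over 3 times the median UMI count, -1.48 when thinned and -0.44 by the mean of per-barcode CPM. The cause of these changes was not tested, apart from gene filters and thinning, which change how many genes can be counted. Of 1252 gene ratios under alternatives, 964 stayed within counting error, 280 moved and 8 turned; of 338 list medians, which here keep genes of the rule, 307, 29 and 2. The macrophage-rich limit, the Ppbp split and the splits of the treatment contrast were chosen after seeing the data.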

Other observations

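Cxcl10 and Cxcl9, chemokines for the same receptor CXCR3, were not alike within members. In Ppbp-free macrophage-rich members Cxcl10 stood at 1541 CPM in anti-PD-1 and 629 CPM in control, a log2 ratio of 1.29 (1.11 to 1.48). Cxcl9 stood there at 43.5 and 128 CPM, a log2 ratio of -1.56 (-2.52 to -0.72). In Ppbp-bearing members Cxcl10 stood at 393 and 450.0 CPM, and Cxcl9 had 0 UMIs in anti-PD-1 and 19 in control. Inhba also went opposite ways, with a log2 ratio of 1.77 (0.57 to 3.20) in Ppbp-bearing and -1.07 (-1.53 to -0.63) in Ppbp-free members. The Ppbp-bearing ratio rested on 32 UMIs in anti-PD-1 and 7 in control, short of the 50 UMIs asked of genes counted within a split. With 1 library a group the differences between the splits were not tested.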
